A study of Mus musculus with 24 samples.

Results

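The comparison set lungs of mice kept in hypoxia and given ABT-263 against lungs of mice kept in normoxia and given ABT-263. It used 12 of the 24 libraries of the series, 6 in each group, chosen by their labels alone. All mice were young males of the strain C57BL6/j, and ABT-263 was dosed at 50 mg/kg/day during 2 days in both groups, so that the control animals of this comparison carried the drug as well. The other 12 libraries, 6 of hypoxia and 6 of normoxia, came from mice given the vehicle. The oxygen level in hypoxia is not given in the sources used here. Messenger RNA of whole lung was sequenced with a stranded library kit, and 16935 genes passed a filter on low counts.

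ABT-263, also called navitoclax, blocks the anti-apoptotic proteins BCL-2, BCL-XL and BCL-W. It is used as a senolytic, a compound that kills senescent cells, and it lowers platelet numbers because platelets depend on BCL-XL. Cells sense low oxygen mainly through the hypoxia-inducible factors (HIF). With oxygen present, the prolyl hydroxylases of the Egln family mark the HIF alpha subunits for destruction through the von Hippel-Lindau protein. Without it, HIF1A or EPAS1 (HIF-2 alpha) pairs with ARNT and binds a short core sequence near genes of glycolysis, iron handling and vessel growth. In the lung, low oxygen constricts the small arteries, and longer exposure thickens their muscular wall.

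Levels are given as CPM, counts scaled to a library total of 1000000 after TMM normalization, and 3 values for a group are the lowest, median and highest of its 6 libraries. A gene was called when edgeR's quasi-likelihood test, fitted to all 24 libraries, gave a Benjamini-Hochberg adjusted p under 0.05 over all 16935 genes. Called genes are said to have risen or fallen in hypoxia. The log2 fold changes are hypoxia over normoxia. Their standard error (SE) was derived as the absolute log2 fold change divided by the square root of the test's F statistic.

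The hypoxia libraries held 12643484 to 17295233 expected counts and the normoxia libraries 12676648 to 16519862. Pairs of libraries within a group correlated at 0.971 to 0.991 across genes, and pairs between the groups at 0.948 to 0.978. Normoxia replicate 5 stood apart: genes of natural killer (NK) cells and of the interferon response were high in it, with the granzyme gene Gzma at 358 CPM against 22.5 to 42.7 CPM in the other 5 normoxia libraries. Hypoxia replicate 1 had the largest mean distance from its group's median. List counts that moved by over 1.5 times without normoxia replicate 5 or any other library are given with and without it. The haemoglobin genes held 1.74 ± 0.589% of the counts in hypoxia and 0.600 ± 0.214% in normoxia (SD, n = 6 each, exact permutation test, two-sided p = 0.00216, the smallest that 6 against 6 can give, adjusted p = 0.00866 over 4 library measures). The lung markers Sftpc, Sftpb, Ager, Scgb1a1, Foxj1 and Cldn5 were present in all 12 libraries.

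Hypoxia under ABT-263 changed 6948 genes, 41.0% of those tested. Of these, 3656 rose (21.6% of all tested) and 3292 fell (19.4%). Most differences were small: 969 called genes (5.72% of all tested) differed 2-fold or more, of which 453 fell and the others rose. At a log2 fold change of 3 or beyond, 35 genes rose and 6 fell. The 6 hypoxia libraries lay wholly above the 6 normoxia libraries for 1552 genes (9.16%) and wholly below them for 928 (5.48%). The median log2 fold change over all genes was -0.02. Among long non-coding lincRNA genes 40 rose and 112 fell of 542, while 3493 protein-coding genes rose and 2907 fell of 14732.

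**Figure D1:**
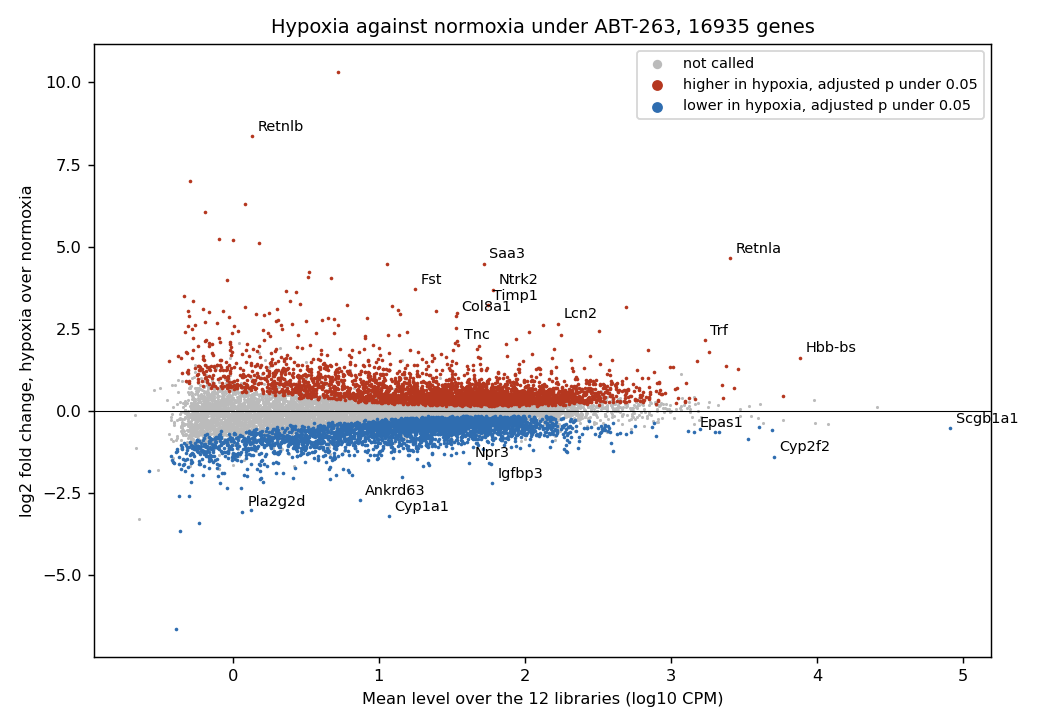
Each point is 1 of the 16935 genes; the x axis is its mean level over the 12 libraries given ABT-263 (log10 CPM) and the y axis its log2 fold change, hypoxia over normoxia. Red points rose (3656), blue points fell (3292) and grey points were not called; at log2 fold changes of 3 or beyond, 35 genes rose and 6 fell. Labels mark a selection of genes. Some points at the extremes carry no label although the text names them, such as Dmbt1, Pdyn, Orm2 and Orm3.

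Genes of the oxygen-sensing pathway itself changed in opposite directions. Hif1a, the alpha subunit of HIF-1, had 49.7, 61.3 and 70.8 CPM in the hypoxia libraries, against 31.2, 34.1 and 37.8 CPM in the normoxia libraries. No hypoxia library reached down to a normoxia library, and Hif1a was 1.80-fold higher in hypoxia (log2 fold change 0.84 ± 0.09 SE, adjusted p = 6.48e-08). Epas1, the alpha subunit of HIF-2 and abundant in lung endothelium, had 962, 1094 and 1390 CPM in the hypoxia libraries, against 1442, 1637 and 2235 CPM in the normoxia libraries. It fell in hypoxia (log2 fold change -0.65 ± 0.11, adjusted p = 5.74e-05), with the hypoxia libraries all below the normoxia libraries. Of the 11 tested genes for HIF subunits and oxygen sensors, 5 rose, 2 fell and 4 were not called. The 5 that rose were Hif1a, the hydroxylases Egln2 and Egln3, the asparaginyl hydroxylase Hif1an and Vhl, and Arnt fell beside Epas1 (log2 fold change -0.19).

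Of 27 tested HIF target genes, 13 rose, 3 fell and 11 were not called, with a median log2 fold change of 0.26. Bnip3, a mitochondrial protein that starts mitophagy, had 106, 132 and 167 CPM in the hypoxia libraries, against 46.6, 49.1 and 53.3 CPM in the normoxia libraries. The groups stood far apart for this gene, and the normoxia libraries lay close together (log2 fold change 1.42 ± 0.10, adjusted p = 1.99e-10). Loxl2, an enzyme that cross-links collagen, was 4.22-fold higher in hypoxia (adjusted p = 1.15e-11), with 42.7, 47.7 and 76.9 CPM in the hypoxia libraries, against 11.9, 12.6 and 14.2 CPM in the normoxia libraries. Ankrd37 had 28.03, 63.7 and 93.4 CPM in the hypoxia libraries, against 5.77, 8.18 and 8.34 CPM in the normoxia libraries, the steepest difference on the list at 2.98. It is named, like Slc2a1, Hilpda, Pfkfb4 and Ankzf1, after its values were seen. Slc2a1, the glucose transporter GLUT1, had 23.2, 30.0 and 44.0 CPM in the hypoxia libraries, against 28.4, 36.4 and 44.7 CPM in the normoxia libraries and was not called (log2 fold change -0.15, adjusted p = 0.394). Vegfa, the main endothelial growth factor, had 487, 704 and 941 CPM in the hypoxia libraries, against 635, 962 and 1120 CPM in the normoxia libraries, and its groups overlapped (log2 fold change -0.35 ± 0.20, adjusted p = 0.159). The 3 that fell were Hilpda, a lipid droplet protein (-0.69), Ankzf1 (-0.74) and the glycolytic regulator Pfkfb4 (-0.40).

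The promoter sequences of HIF targets were set beside these values, because the letters that HIF binds include ACGTG. The other form of the core, GCGTG, was not searched, so a gene without ACGTG may still hold a core. Each RefSeq promoter window of 300 bases (assembly GRCm38.p6) was searched on both strands. The letters were found for 16 of the 21 HIF targets that had a window (76.2%), for 27.7% of 12253 tested genes with a window, for 29.0% of those that rose, 26.2% of those that fell and 27.6% of those not called. Of the 16 HIF targets with the letters, 6 rose, 2 fell and 8 were not called. Of the 5 without them, 2 rose, 1 fell and 2 were not called. The stretches below hold the matches nearest the gene start of 3 genes that rose (Bnip3, Ankrd37 and Ldha), of Slc2a1, which was not called, and of Hilpda, which fell. They are written 5′ to 3′ on the gene's strand, with the letters ACGTG or their reverse CACGT in capitals. A run of CACGTG holds a match on both strands, which overlap.
Bnip3, chr7:138909567-138909656, minus strand: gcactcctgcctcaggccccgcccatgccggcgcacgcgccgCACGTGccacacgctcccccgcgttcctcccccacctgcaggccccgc
Ankrd37, chr8:45999851-45999910, minus strand: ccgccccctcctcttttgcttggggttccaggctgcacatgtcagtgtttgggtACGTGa
Ldha, chr7:46845634-46845793, plus strand: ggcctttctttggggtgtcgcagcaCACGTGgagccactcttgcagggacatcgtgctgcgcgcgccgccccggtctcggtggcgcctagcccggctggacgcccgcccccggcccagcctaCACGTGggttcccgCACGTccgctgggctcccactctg
Slc2a1, chr4:119108685-119108744, plus strand: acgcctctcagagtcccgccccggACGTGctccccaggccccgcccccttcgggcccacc
Hilpda, chr6:29272566-29272625, plus strand: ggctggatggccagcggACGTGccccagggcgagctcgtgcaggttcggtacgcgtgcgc
The same letters thus stood in genes that rose, fell and were not called. A match describes the sequence and is not evidence of binding in these lungs.

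Of 18 genes of glycolysis 10 rose, 2 fell and 6 were not called, and the median log2 fold change was 0.47. Ldha, which turns pyruvate into lactate and carries 3 stretches of the letters above, had 435, 602 and 739.6 CPM in the hypoxia libraries, against 269, 305 and 381 CPM in the normoxia libraries (1.87-fold, adjusted p = 5.71e-06). Pfkl, the liver form of phosphofructokinase, had 61.4, 64.3 and 106 CPM in the hypoxia libraries, against 31.4, 38.0 and 46.4 CPM in the normoxia libraries (1.93-fold, adjusted p = 2.58e-06). For both enzymes the groups did not overlap. Gapdh (0.73), Pgam1 (0.90), Eno1 (0.70), Pkm (0.65), Pgk1 (0.56), Tpi1 (0.49), Aldoa (0.44) and Aldoc (1.01, all log2 fold changes) rose with them. The muscle phosphofructokinase Pfkm (-0.57) and the neuronal glucose transporter Slc2a3 (-0.55) fell. Of 22 nuclear genes of the respiratory chain 9 rose, Sdha fell, and the median was 0.23. The called share was 45.5%, beside 41.0% of all genes tested. The call of Sdha was lost without hypoxia replicate 2, 3 or 5 or normoxia replicate 1, 3, 4 or 5. Cox7a2, a subunit of complex IV, had 188, 282 and 301 CPM in the hypoxia libraries, against 174, 190.3 and 193 CPM in the normoxia libraries, and hypoxia replicate 1 (188 CPM) lay within the normoxia range while the other 5 lay above it. Atp5c1, a subunit of ATP synthase, rose 1.34-fold (adjusted p = 4.34e-04).

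The 12 largest rises included the resistin-like genes Retnla and Retnlb, Dmbt1 and Chil4, the acute-phase genes Saa3, Orm1 and Orm2, and the unrelated Pdyn, Ntsr2, Speer4c, Fst and Ntrk2, described with their groups below. Retnla, resistin-like alpha, also known as hypoxia-induced mitogenic factor, had 2109, 4488 and 7048 CPM in the hypoxia libraries, against 106, 171 and 368 CPM in the normoxia libraries. Every hypoxia library exceeded the highest normoxia library, and Retnla was 25.1-fold higher (log2 fold change 4.65 ± 0.34, adjusted p = 5.53e-10), with 1 of the 5 largest rises in CPM of all genes. Its relative Retnlb, a goblet cell product, gave 231 counts over the hypoxia libraries and 0 over the normoxia libraries, at least 79.2-fold higher taking 3 counts as the limit for the whole normoxia group. Dmbt1, a mucosal scavenger receptor, gave 208 against 2 counts, a ratio of 107 with a counting interval of 29.3 to 890 (95%, exact). Chil4, a chitinase-like protein, had 0.422, 3.58 and 20.2 CPM in the hypoxia libraries, against 0.0659, 0.308 and 0.796 CPM in the normoxia libraries. Its groups overlapped, and the call (log2 fold change 4.22 ± 1.2, adjusted p = 0.00779) was lost with limma-voom (adjusted p = 0.15). Of 20 tested resistin-like, chitinase-like and other genes of type 2 inflammation, 13 rose and the other 7 were not called (median 0.97), and 12 lay wholly above normoxia. Mrc1, the macrophage mannose receptor, had 72.3, 93.9 and 113 CPM in the hypoxia libraries, against 47.1, 55.2 and 63.9 CPM in the normoxia libraries.

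Acute-phase and inflammatory genes rose in 16 of 21 cases and the other 5 were not called, with a median log2 fold change of 1.29. Saa3, a serum amyloid made by macrophages and epithelium, had 61.0, 88.2 and 146 CPM in the hypoxia libraries, against 2.04, 4.91 and 6.13 CPM in the normoxia libraries. The hypoxia libraries all lay above normoxia (22.3-fold, adjusted p = 5.90e-09). The orosomucoids Orm1 and Orm2 rose as well (log2 fold changes 4.48 ± 0.39 and 5.12 ± 0.63), while the third copy, Orm3, fell by 3.42 on that scale. These 3 copies are near-identical, so the division of reads among them is uncertain. Lcn2, the iron-trapping neutrophil gelatinase lipocalin, had 182, 284 and 430.4 CPM in the hypoxia libraries, against 25.8, 43.4 and 68.3 CPM in the normoxia libraries (6.33-fold, adjusted p = 2.51e-07). The cytokine gene Il6, low in all libraries, had 2.32, 3.02 and 5.45 CPM in the hypoxia libraries, against 0.159, 0.199 and 1.84 CPM in the normoxia libraries, and Il1b (0.24) and Tnf (-0.65) were not called.

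Among chemokines 14 of 26 rose and 4 fell, and without normoxia replicate 5 15 rose and 1 fell. Without hypoxia replicate 1 or 5, 2 fell. Ccl2, which attracts monocytes, had 5.92, 6.97 and 12.9 CPM in the hypoxia libraries, against 0.659, 0.959 and 2.10 CPM in the normoxia libraries (7.09-fold, adjusted p = 2.90e-08). Cxcl12, made by endothelium and stroma, had 322, 424 and 582 CPM in the hypoxia libraries, against 104, 132 and 168 CPM in the normoxia libraries (3.21-fold, adjusted p = 5.85e-09). Neither gene's groups overlapped. In the list of secretory products of senescent cells, the cells that ABT-263 is used against, 12 of 24 rose, 2 fell and the median was 0.57; 1 fell without hypoxia replicate 1, 5 or 6 or normoxia replicate 5. Timp1, an inhibitor of matrix metalloproteinases, led it with 80.3, 97.4 and 132 CPM in the hypoxia libraries, against 6.39, 11.9 and 13.8 CPM in the normoxia libraries (9.29-fold, adjusted p = 3.54e-12). Mmp3, stromelysin, had 57.9, 69.5 and 96.1 CPM in the hypoxia libraries, against 19.6, 25.8 and 34.8 CPM in the normoxia libraries and a log2 fold change of 1.43 ± 0.13. The 2 that fell were the chemokine Ccl4 (-1.16) and Igfbp3, a carrier of insulin-like growth factors, with 11.99, 20.4 and 34.6 CPM in the hypoxia libraries, against 72.4, 98.2 and 119 CPM in the normoxia libraries (4.58-fold lower, adjusted p = 4.50e-07).

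**Figure D2:**
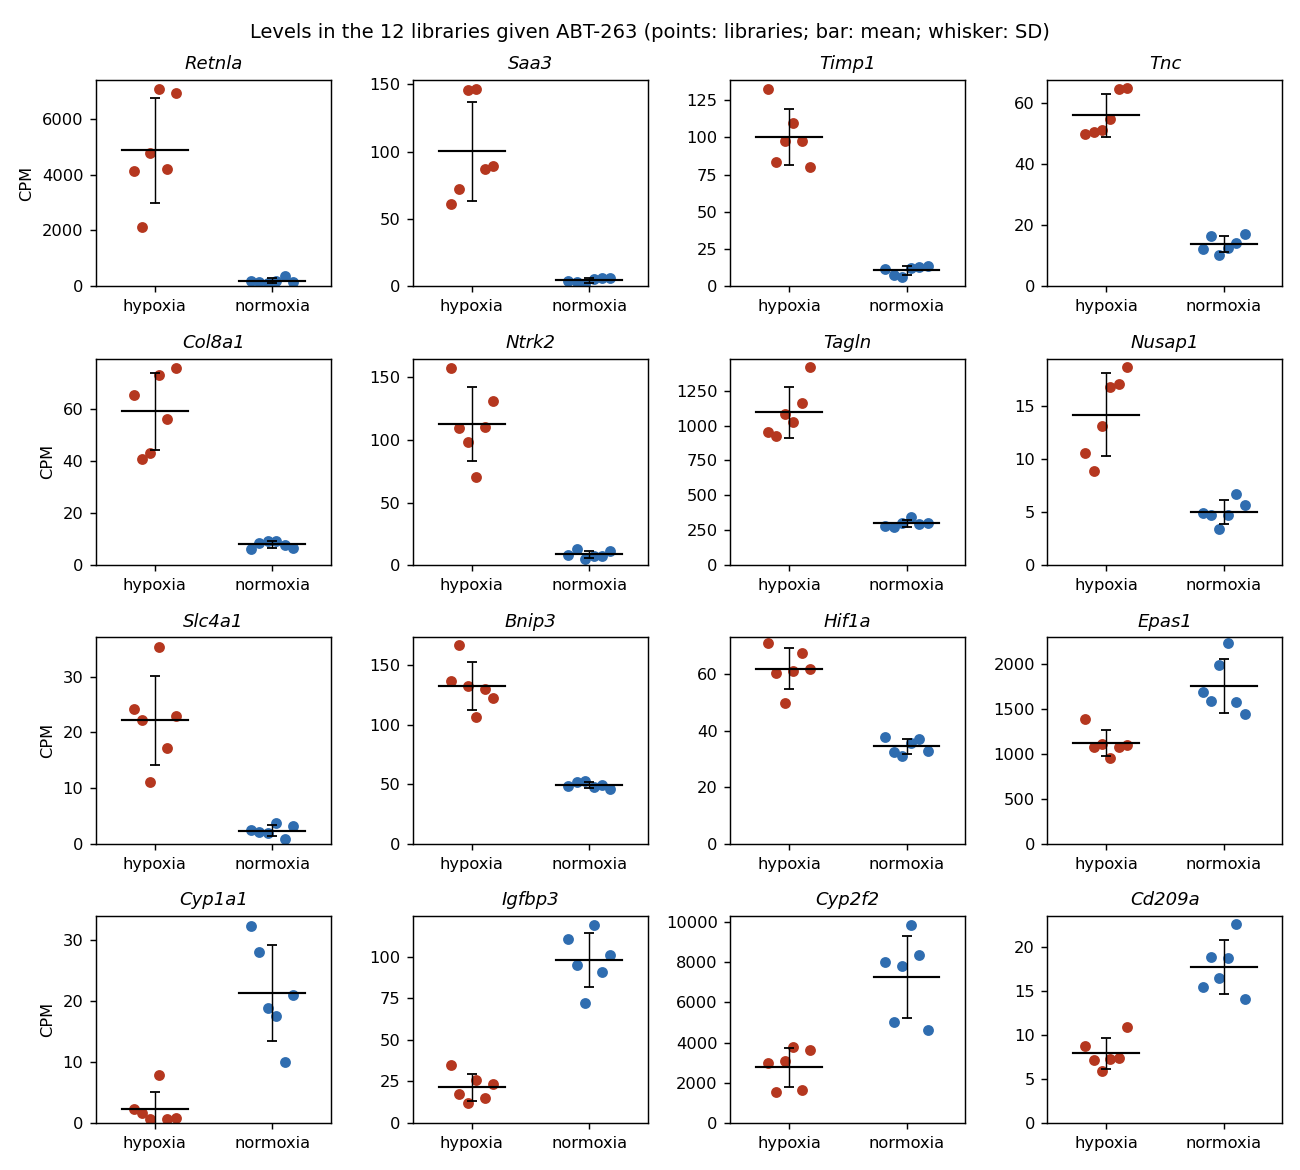
Levels of 16 genes (CPM, linear axes from 0) in the 6 hypoxia libraries (red, left) and the 6 normoxia libraries (blue, right) given ABT-263; points are libraries, bars the mean and whiskers the SD. The groups do not overlap for any gene shown; Retnla spans 2109 to 7048 CPM in hypoxia, and Epas1, Cyp1a1, Igfbp3, Cyp2f2 and Cd209a are lower in hypoxia.

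Most extracellular matrix genes rose. Of 42 tested members 33 rose and 1, Spp1 (osteopontin, -0.75), fell, with a median log2 fold change of 0.83, and 25 members lay wholly above normoxia. The call of Spp1 was lost without hypoxia replicate 2, 3, 5 or 6 or normoxia replicate 4 or 6, and 2 members fell without normoxia replicate 3. Tnc, tenascin C of remodelling tissue, had 49.8, 52.9 and 64.9 CPM in the hypoxia libraries, against 10.2, 13.5 and 17.1 CPM in the normoxia libraries (4.04-fold, adjusted p = 7.69e-13). Col8a1, a short-chain collagen of vessel walls, had 40.8, 60.6 and 75.8 CPM in the hypoxia libraries, against 6.30, 8.09 and 9.46 CPM in the normoxia libraries (7.37-fold, adjusted p = 7.69e-13). Fibrillar collagens rose less: Col1a1 had a log2 fold change of 1.14 and Col3a1 of 0.99, beside 1.24 for the basement membrane chain Col4a1. The cross-linking enzyme Lox (1.51), fibronectin Fn1 (1.55) and elastin Eln (1.12) rose too. Mgp, matrix Gla protein, an inhibitor of calcification, averaged 4099 ± 695 CPM in hypoxia and 1674 ± 334 CPM in normoxia, and the matricellular protein Sparc averaged 3436 ± 1002 CPM in hypoxia and 1328 ± 233 CPM in normoxia (SD, n = 6 each). Both were among the 5 largest rises in CPM.

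Smooth muscle and pericyte markers rose in 8 of 18 cases and the other 10 were not called, with a median of 0.29. In these bulk samples, fewer cells of a type and less RNA per cell cannot be told apart, which holds for every cell type below. Tagln (transgelin), an actin-binding protein of smooth muscle, had 926, 1054 and 1422 CPM in the hypoxia libraries, against 275, 297 and 342 CPM in the normoxia libraries (3.65-fold, adjusted p = 1.45e-12). Cspg4, the pericyte proteoglycan NG2, had 34.7, 37.5 and 43.6 CPM in the hypoxia libraries, against 14.1, 15.8 and 18.8 CPM in the normoxia libraries (2.36-fold). Acta2 (smooth muscle actin) had a log2 fold change of 1.56. The late contractile markers Myh11 (0.02) and Cnn1 (0.31) and the regulator Myocd (0.03) were not called. Cardiac muscle genes, which the lung's large veins express, were mostly lower in hypoxia, with 16 of 17 differences negative and a median of -0.78. Of the 17, 5 (29.4%) fell, beside 19.4% of all genes tested, and the other 12 were not called. Their summed level was 537 to 1327 CPM in hypoxia and 898 to 2316 CPM in normoxia. The fall of Ttn (titin) rested on overlapping groups (7.46, 20.8 and 23.7 CPM in the hypoxia libraries, against 20.9, 46.6 and 62.1 CPM in the normoxia libraries). The cardiac count that fell was 4 to 6 when each library was left out in turn and 3 to 11 under the other settings. The highest, 11, came from the fit to the 12 libraries alone.

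Growth factor and receptor genes rose in 18 of 38 cases and fell in 3, or in 5 without hypoxia replicate 1 or 2 or normoxia replicate 6. Ntrk2, the receptor TrkB for brain-derived neurotrophic factor, had 70.5, 109.9 and 157 CPM in the hypoxia libraries, against 5.14, 7.79 and 12.9 CPM in the normoxia libraries. The groups were widely apart (12.9-fold, adjusted p = 7.69e-13). Pgf, placental growth factor of the VEGF family, had 20.6, 25.5 and 34.3 CPM in the hypoxia libraries, against 4.11, 4.80 and 6.27 CPM in the normoxia libraries (5.24-fold, adjusted p = 2.34e-11). Vegfc (1.38) rose with it, while Kdr, the main VEGF receptor, was not called (-0.07). The 3 that fell were Igfbp3, the apelin receptor Aplnr (-0.94) and Tie1 (-0.41).

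In the BMP and TGF-beta pathway, which restrains or drives vessel remodelling, 11 of 30 genes rose and 5 fell. Fst, follistatin, which binds activins, had 14.7, 29.4 and 58.2 CPM in the hypoxia libraries, against 1.98, 2.62 and 3.10 CPM in the normoxia libraries (13.1-fold, adjusted p = 1.08e-09). Fstl3, its relative, had 27.4, 30.5 and 49.0 CPM in the hypoxia libraries, against 12.7, 16.5 and 18.8 CPM in the normoxia libraries. The activin subunit Inhba (1.31) and the BMP antagonist Grem1 (1.46) rose. The 5 that fell were Eng (endoglin, -0.72), Smad6 (-0.84), Bmp6 (-0.81), Tmem100 (-0.60) and Inhbb (-0.42). The receptor Bmpr2 was not called (-0.13).

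Of 27 mediators of vascular tone 7 rose and 7 fell, with a median of -0.04, beside 21.6% risen and 19.4% fallen over all genes. Calcrl, the receptor for adrenomedullin and calcitonin gene-related peptide, had 508.1, 804 and 1215 CPM in the hypoxia libraries, against 242, 353 and 409 CPM in the normoxia libraries (2.38-fold, adjusted p = 1.75e-06). Npr3, the clearance receptor for natriuretic peptides, had 17.1, 20.02 and 26.1 CPM in the hypoxia libraries, against 45.9, 59.5 and 91.1 CPM in the normoxia libraries (2.97-fold lower, adjusted p = 9.74e-08). Neither gene's groups overlapped. Edn1, the vasoconstrictor endothelin-1, rose with a log2 fold change of 1.27, while its receptor Ednrb fell (-0.68) and Nos3 was not called (0.16).

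Capillary endothelial markers did not move together. Of 12 markers of general capillaries 3 rose and 5 fell. Kit, a receptor tyrosine kinase, had 52.0, 57.0 and 76.5 CPM in the hypoxia libraries, against 85.4, 98.6 and 124 CPM in the normoxia libraries (1.66-fold lower, adjusted p = 1.85e-05), against the rise of Cxcl12 on the same list. Of 13 aerocyte markers 3 rose and 5 fell: the chemokine scavenger Ackr2 had 23.97, 32.99 and 48.9 CPM in the hypoxia libraries, against 16.8, 21.4 and 23.4 CPM in the normoxia libraries, and Ednrb had 19.7, 27.2 and 36.7 CPM in the hypoxia libraries, against 37.9, 40.5 and 59.8 CPM in the normoxia libraries. Of 18 markers of arteries, veins and lymphatics 6 rose and 3 fell. Dll4, an arterial Notch ligand, had 21.1, 27.8 and 34.6 CPM in the hypoxia libraries, against 53.5, 61.4 and 65.2 CPM in the normoxia libraries (2.13-fold lower, adjusted p = 6.01e-08). Pdpn, a marker of both lymphatic endothelium and alveolar type 1 cells, had 27.2, 29.5 and 54.2 CPM in the hypoxia libraries, against 9.36, 12.6 and 14.1 CPM in the normoxia libraries (2.86-fold).

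Genes of cell division were higher in hypoxia almost throughout. Of 36 tested genes 30 rose, the other 6 were not called, all 36 differences were positive and the median was 0.95. Nusap1, a protein of the mitotic spindle, had 8.88, 14.9 and 18.7 CPM in the hypoxia libraries, against 3.36, 4.82 and 6.67 CPM in the normoxia libraries (2.82-fold, adjusted p = 1.27e-06). Tyms, which makes thymidylate for DNA, had 16.2, 23.4 and 28.5 CPM in the hypoxia libraries, against 9.03, 11.5 and 13.7 CPM in the normoxia libraries (2.001-fold). Neither overlapped. Ccnd1 (0.13), Mcm4 (0.29), Mcm7 (0.13), Plk1 (0.47), Bub1 (0.41) and Cenpe (0.59) did not pass. Of 20 genes of ribosome biogenesis and Myc 10 rose and Polr1b fell (-0.39), with a median of 0.22. Odc1, which starts polyamine synthesis, had 140.4, 169 and 206 CPM in the hypoxia libraries, against 84.3, 116 and 129 CPM in the normoxia libraries, and the next enzyme, spermidine synthase Srm, had 13.2, 16.9 and 27.7 CPM in the hypoxia libraries, against 8.22, 11.2 and 13.2 CPM in the normoxia libraries.

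Promoters of cell cycle genes share a CCAAT box and a cell cycle homology region, here searched as TTTGAA. These letters stood in 12 of 28 cell cycle windows (42.9%), against 15.0% of all tested genes. Of the genes with them 11 rose and 1 was not called, and of those without them 13 rose and 3 were not called. CCAAT stood in 22 of 28 (78.6%), against 41.9%. The stretch before Cdk1, the mitotic kinase, shows both, in capitals, with CCAAT in its reverse form ATTGG.
Cdk1, chr10:69352913-69353042, minus strand: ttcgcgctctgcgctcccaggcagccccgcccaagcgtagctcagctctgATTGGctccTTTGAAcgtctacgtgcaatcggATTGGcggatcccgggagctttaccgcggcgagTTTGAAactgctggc
Cdk1 had 12.7, 30.6 and 42.4 CPM in the hypoxia libraries, against 7.38, 9.79 and 12.6 CPM in the normoxia libraries (2.99-fold, adjusted p = 1.69e-05), and its groups did not overlap, though the lowest hypoxia library came close to the highest normoxia library.

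Red cell genes were high in hypoxia. Of 19 tested 12 rose and the other 7 were not called, the median was 1.33, and their summed level ran from 11561 to 31187 CPM in hypoxia and from 2987 to 8194 CPM in normoxia. Slc4a1, the red cell anion exchanger band 3, had 11.2, 22.6 and 35.3 CPM in the hypoxia libraries, against 0.926, 2.29 and 3.81 CPM in the normoxia libraries (9.25-fold, adjusted p = 9.74e-08). Trim10, needed in erythroid maturation, had 3.75, 6.75 and 12.7 CPM in the hypoxia libraries, against 0.663, 1.08 and 1.42 CPM in the normoxia libraries (6.78-fold). The beta-globin gene Hbb-bs averaged 11527 ± 4402 CPM in hypoxia and 3757 ± 1320 CPM in normoxia, with reads shared with its near-identical copy Hbb-bt. The early erythroid regulators Gata1 (0.19) and Tal1 (-0.03) and the transferrin receptor Tfrc (0.20) were not called. In iron handling 7 of 15 rose and 2 fell (1 without hypoxia replicate 6). Trf, transferrin, had 1547, 2642 and 4043 CPM in the hypoxia libraries, against 489.5, 635 and 722 CPM in the normoxia libraries (4.46-fold, adjusted p = 1.44e-07), although the gene model Gm20425 overlaps it on the same strand. The 2 that fell were the iron importer Slc11a2 (-0.34) and hepcidin, Hamp (-1.34).

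Platelet genes, of interest because ABT-263 lowers platelets, were mixed. Of 21 tested 5 rose and 6 fell, with a median of -0.30, but 2 fell without hypoxia replicate 2 or 5 or normoxia replicate 3, 4 or 5, and 3 without hypoxia replicate 3 or 4. Without normoxia replicate 5, 6 rose. Under vehicle 5 platelet genes rose and 1 fell, with a median of 0.10. Pf4, platelet factor 4, had 44.4, 59.1 and 67.9 CPM in the hypoxia libraries, against 28.6, 35.6 and 41.6 CPM in the normoxia libraries (1.64-fold, adjusted p = 3.08e-04). Nrgn, a calmodulin-binding protein of platelets and neurons, had 16.9, 22.4 and 34.2 CPM in the hypoxia libraries, against 32.6, 41.6 and 65.6 CPM in the normoxia libraries and fell with overlapping groups (adjusted p = 2.08e-04). The integrin Itga2b (-0.32) and Ppbp (-0.30) were not called.

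For the genes of the drug's protein targets the differences were small. Bcl2 averaged 20.8 ± 2.08 CPM in hypoxia and 17.4 ± 1.22 CPM in normoxia (SD, n = 6 each), a log2 fold change of 0.26 ± 0.08 (adjusted p = 0.016). Bcl2l2, which encodes BCL-W, averaged 98.2 ± 13.3 CPM in hypoxia and 78.9 ± 5.39 CPM in normoxia (0.32 ± 0.09, adjusted p = 0.00597). Bcl2l1, which encodes BCL-XL, averaged 115 ± 21.8 CPM in hypoxia and 99.2 ± 27.2 CPM in normoxia and was not called (0.21 ± 0.14, adjusted p = 0.239), though it passed without normoxia replicate 4 (adjusted p = 0.0339). Mcl1, the relative that ABT-263 does not block, averaged 476 ± 29.2 CPM in hypoxia and 443 ± 39.1 CPM in normoxia and was not called (0.10 ± 0.08, adjusted p = 0.342). All 4 pairs of groups overlapped. Of 17 BCL-2 family genes 6 rose and 2 fell, and 8 rose and 1 fell without normoxia replicate 5. With that library 47.1% were called, beside 41.0% of all genes tested. The count that fell was also 1 without hypoxia replicate 2, 5 or 6 or normoxia replicate 1 or 3. Bcl2l11, the pro-apoptotic activator BIM, had 18.9, 20.2 and 24.1 CPM in the hypoxia libraries, against 32.8, 38.7 and 53.2 CPM in the normoxia libraries (1.95-fold lower, adjusted p = 6.90e-07). Bad, a pro-apoptotic sensitiser, had 54.1, 68.0 and 70.7 CPM in the hypoxia libraries, against 40.5, 42.2 and 43.0 CPM in the normoxia libraries (1.55-fold, adjusted p = 1.42e-06). Neither overlapped, and Bbc3 (PUMA, -0.27) was the other member that fell.

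Markers of senescence and p53 activity had no common direction. Cdkn1a, which encodes p21, had 41.5, 54.7 and 104 CPM in the hypoxia libraries, against 38.9, 49.4 and 101 CPM in the normoxia libraries and was not called (log2 fold change -0.08 ± 0.23, adjusted p = 0.816); its sign turned when any of 4 libraries was left out. Cdkn2a, which encodes p16 and ARF, stayed under 2 CPM in every library and was not called (-0.81 ± 0.40, adjusted p = 0.11). Of 22 p53 targets and cell cycle inhibitors 8 rose and 4 fell, and 8 rose and 2 fell without normoxia replicate 5. The count that fell was also 2 without hypoxia replicate 2, 4 or 5 or normoxia replicate 1 or 3. Sesn1, a stress-induced antioxidant protein, had 42.8, 45.8 and 50.05 CPM in the hypoxia libraries, against 54.4, 60.7 and 70.2 CPM in the normoxia libraries. Gadd45g, a growth arrest gene, had 29.5, 33.4 and 37.6 CPM in the hypoxia libraries, against 20.7, 21.6 and 24.7 CPM in the normoxia libraries, and neither pair overlapped.

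Cholesterol synthesis rose as nearly a whole pathway. Of 23 tested genes 19 rose, the other 4 were not called, all 23 differences were positive and the median was 0.61. Hmgcs1, the synthase that supplies HMG-CoA, had 131, 146 and 173 CPM in the hypoxia libraries, against 74.5, 78.5 and 82.5 CPM in the normoxia libraries (1.90-fold, adjusted p = 2.18e-07). Hsd17b7, a later enzyme of the sterol ring, had 15.2, 19.4 and 22.4 CPM in the hypoxia libraries, against 6.98, 8.45 and 9.37 CPM in the normoxia libraries (2.30-fold, adjusted p = 1.17e-08). The groups did not overlap for these 2 or for 12 further members. Insig1, which holds the pathway back when sterols are plentiful, had a log2 fold change of 0.61, while the regulator Srebf2 was not called (0.10). All 16 members with a promoter window held CCAAT, against 41.9% of tested genes. The stretch before Hmgcs1 shows CCAAT in reverse and, further on, a match to TCACNCCAC, the sterol response element, which 1.41% of tested genes held.
Hmgcs1, chr13:119690151-119690270, plus strand: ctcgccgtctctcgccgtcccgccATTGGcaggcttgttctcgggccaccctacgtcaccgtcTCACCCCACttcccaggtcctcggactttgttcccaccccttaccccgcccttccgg
No other cholesterol gene with a window held the sterol element letters.

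Other lipid genes were divided. In fatty acid synthesis 7 of 19 rose and 4 fell, or 2 without hypoxia replicate 4 and 1 without hypoxia replicate 5. Among the risers were Fasn (fatty acid synthase), with 151, 176 and 237 CPM in the hypoxia libraries, against 111, 141 and 148 CPM in the normoxia libraries and Elovl6, an elongase, with 9.10, 9.87 and 12.6 CPM in the hypoxia libraries, against 5.604, 6.19 and 6.52 CPM in the normoxia libraries. In fatty acid oxidation and ketone synthesis 6 of 21 (28.6%) fell, beside 19.4% of all genes tested, and the other 15 were not called. The coactivator Ppargc1a, which fell, had 2.96, 4.42 and 5.64 CPM in the hypoxia libraries, against 5.39, 6.66 and 8.11 CPM in the normoxia libraries. Of 12 adipocyte genes edgeR called 0 and 0 had an unadjusted p under 0.05, and DESeq2 and limma-voom also called 0. In the ATF4 amino acid response 7 of 19 genes (36.8%) rose, beside 21.6% of all tested, and the other 12 were not called. Psat1, of serine synthesis, had 34.8, 49.0 and 59.4 CPM in the hypoxia libraries, against 14.2, 16.1 and 20.1 CPM in the normoxia libraries (2.84-fold, adjusted p = 6.72e-09), and the folate enzyme Aldh1l2 had 2.31, 3.29 and 4.33 CPM in the hypoxia libraries, against 0.663, 1.41 and 1.78 CPM in the normoxia libraries. In the unfolded protein response 9 of 20 rose and 2 fell, or 1 without hypoxia replicate 1, 3, 4, 5 or 6 or normoxia replicate 1, 4 or 5, with the chaperone partner Sdf2l1 at 29.6, 39.2 and 45.1 CPM in the hypoxia libraries, against 18.6, 20.1 and 23.2 CPM in the normoxia libraries and the secreted factor Manf at 146, 162 and 181 CPM in the hypoxia libraries, against 87.8, 100.2 and 123 CPM in the normoxia libraries.

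**Figure D3:**
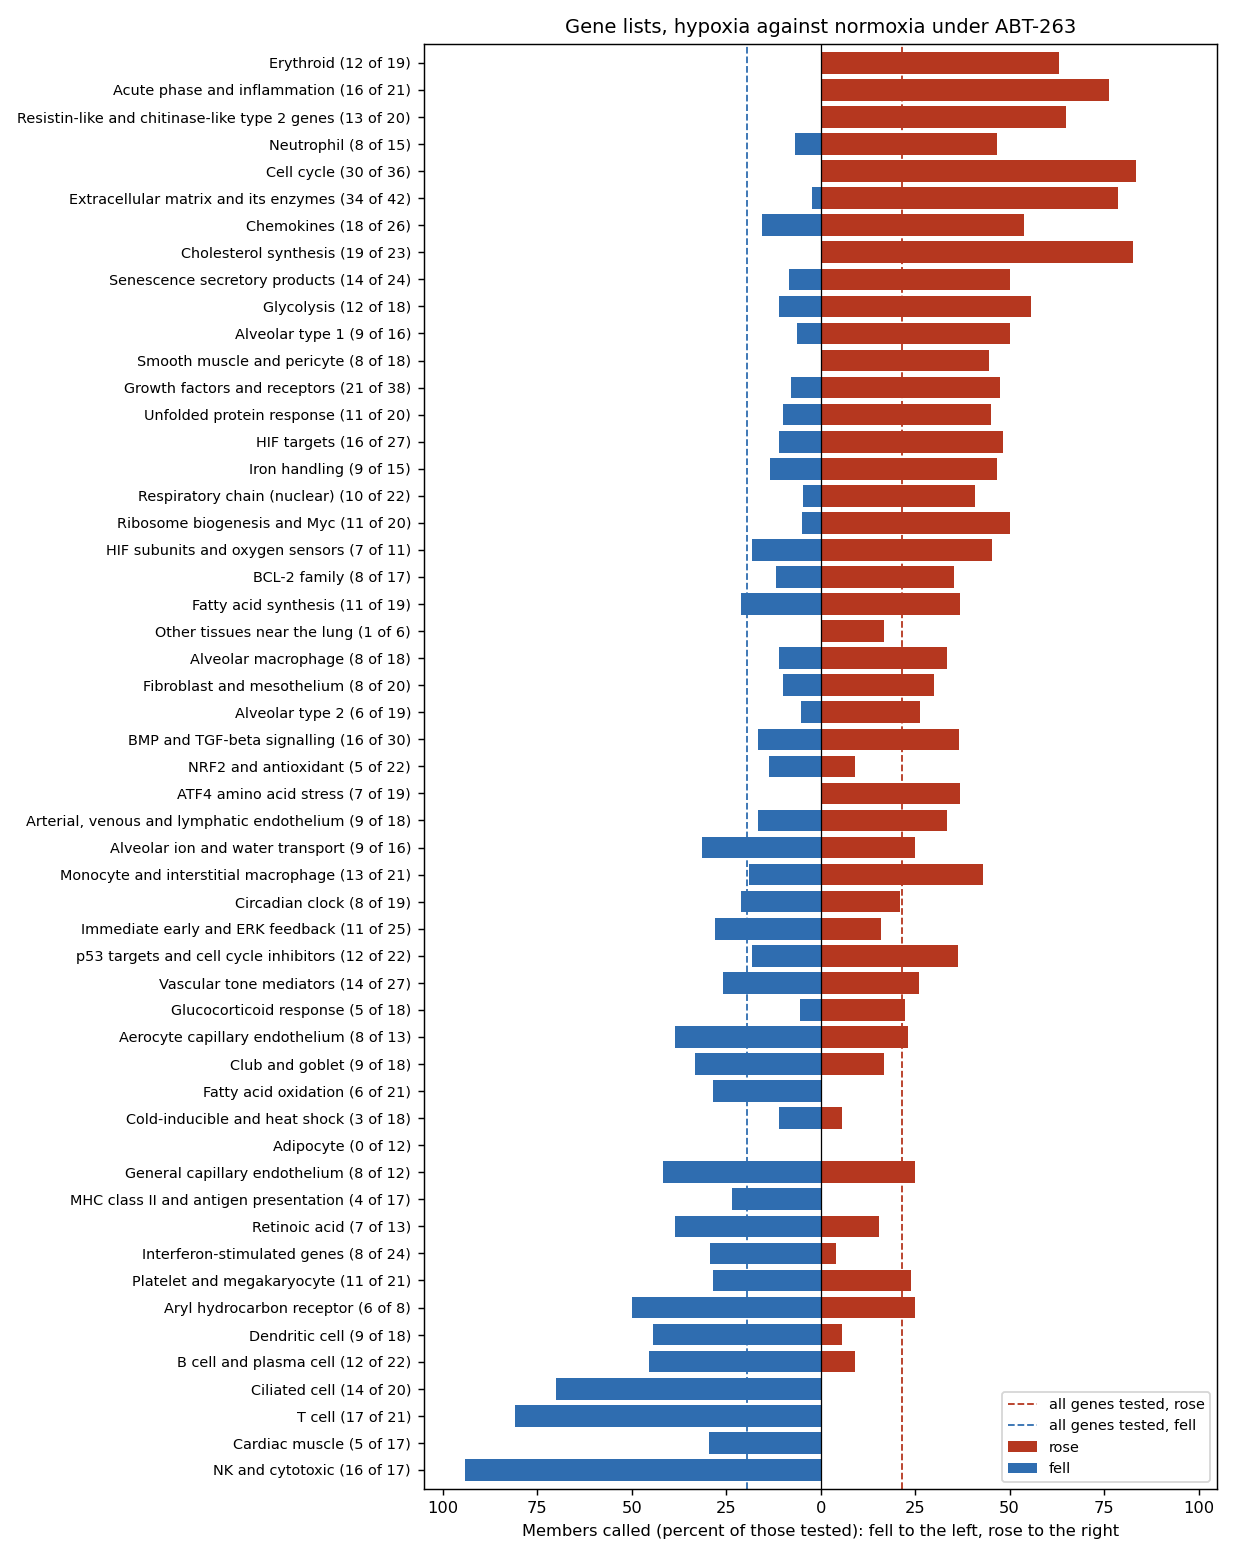
Share of the tested members of each of 53 gene lists that rose (red, to the right) or fell (blue, to the left), sorted by median log2 fold change; numbers in brackets are the members called of those tested. Dashed lines mark the shares over all genes tested, 21.6% risen and 19.4% fallen; cell cycle (30 of 36), cholesterol synthesis (19 of 23) and extracellular matrix (34 of 42) stand at the right, T cell (17 of 21), ciliated cell (14 of 20) and NK genes (16 of 17, of which 5 without normoxia replicate 5) at the left.

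Ciliated cell genes were lower in hypoxia, and club and goblet cell genes were divided. Of 20 ciliated cell genes 14 fell and the other 6 were not called, with a median of -0.51. The dynein chain gene Dnaic1 had 6.11, 7.49 and 8.52 CPM in the hypoxia libraries, against 11.4, 13.3 and 15.1 CPM in the normoxia libraries (1.79-fold lower, adjusted p = 3.74e-05), and Hydin, of the central pair of cilia, had 9.61, 12.98 and 17.6 CPM in the hypoxia libraries, against 19.5, 23.9 and 24.3 CPM in the normoxia libraries (1.75-fold lower). Neither overlapped, while the master regulator Foxj1 (-0.26) was not called. Among 18 club and goblet cell genes 3 rose and 6 fell. Cyp2f2, a club cell cytochrome P450, had 1543, 3016 and 3795 CPM in the hypoxia libraries, against 4622, 7907 and 9874 CPM in the normoxia libraries (2.63-fold lower, adjusted p = 7.57e-05). Scgb1a1, the club cell secretory protein, averaged 66663 ± 14213 CPM in hypoxia and 96114 ± 24390 CPM in normoxia (SD, n = 6 each). Its groups overlapped and its call (adjusted p = 0.0271) was lost under 6 of 18 alternatives. Cbr2, a carbonyl reductase of club cells, averaged 3966 ± 888 CPM in hypoxia and 5872 ± 1562 CPM in normoxia. The 3 that rose were the mucins Muc5b (1.14) and Muc5ac (0.89) and the antimicrobial lectin Reg3g (3.18).

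Of 19 alveolar type 2 cell genes 5 rose and 1 fell: the cathepsin Ctsh had 672, 741 and 794 CPM in the hypoxia libraries, against 455, 469 and 509.2 CPM in the normoxia libraries, and the lung transcription factor Nkx2-1, the member that fell, had 92.3, 111 and 157 CPM in the hypoxia libraries, against 161, 193 and 207 CPM in the normoxia libraries. Sftpc was not called (0.12). Of the type 2 list 31.6% were called, beside 41.0% of all genes tested (21.6% risen, 19.4% fallen). The called shares were 56.25% for the type 1 and transport lists and 40% for the fibroblast list that follow. Of 16 alveolar type 1 cell genes 8 rose and Rtkn2 fell (-0.32). Clic5, a chloride channel protein, had 493, 626 and 786 CPM in the hypoxia libraries, against 357, 369.6 and 465 CPM in the normoxia libraries (1.59-fold, adjusted p = 9.53e-05). In ion and water transport 4 of 16 rose and 5 fell, or 3 without hypoxia replicate 2 or 5 or normoxia replicate 4, with the anion exchanger Slc26a4 (pendrin) at 7.04, 10.8 and 13.5 CPM in the hypoxia libraries, against 2.04, 2.89 and 3.37 CPM in the normoxia libraries and the chloride channel Cftr at 5.47, 8.22 and 10.3 CPM in the hypoxia libraries, against 12.7, 13.5 and 15.1 CPM in the normoxia libraries. Of 20 fibroblast and mesothelial genes 6 rose and 2 fell, or 1 without hypoxia replicate 3, 4 or 5 or normoxia replicate 1 or 2, with the eosinophil chemokine Ccl11 at 3.80, 4.83 and 6.73 CPM in the hypoxia libraries, against 1.70, 2.55 and 3.02 CPM in the normoxia libraries and the microfibril protein Mfap5 at 51.5, 70.0 and 99.5 CPM in the hypoxia libraries, against 34.9, 44.9 and 56.1 CPM in the normoxia libraries.

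Xenobiotic genes included some of the steepest falls. Cyp1a1, the classic target of the aryl hydrocarbon receptor, had 0.640, 1.25 and 7.84 CPM in the hypoxia libraries, against 10, 19.9 and 32.2 CPM in the normoxia libraries. Hypoxia replicate 4 was the highest of its group at 7.84 CPM and still lay below the lowest normoxia library (9.19-fold lower, adjusted p = 2.34e-06). Aldh3a1, a detoxifying dehydrogenase, had 12.5, 21.3 and 25.8 CPM in the hypoxia libraries, against 32.0, 50.6 and 54.0 CPM in the normoxia libraries (2.40-fold lower). Of 8 tested genes of this pathway 4 fell and 2 rose, Ahr itself among the risers (0.37). Of 13 retinoic acid genes 2 rose and 5 fell: Crabp1, a retinoic acid carrier, had 0.0585, 0.283 and 0.538 CPM in the hypoxia libraries, against 0.462, 1.27 and 2.38 CPM in the normoxia libraries, and Aldh1a3, which makes retinoic acid, had 1.06, 1.59 and 3.45 CPM in the hypoxia libraries, against 0.494, 0.846 and 1.06 CPM in the normoxia libraries. In the NRF2 antioxidant list 2 of 22 rose and 3 fell, so 22.7% were called, beside 41.0% of all genes tested. Plasma glutathione peroxidase Gpx3 had 1122, 1485 and 2357 CPM in the hypoxia libraries, against 762, 853 and 1159 CPM in the normoxia libraries. Gstm1 had 156, 222 and 319 CPM in the hypoxia libraries, against 258, 369.8 and 528 CPM in the normoxia libraries. Low genes among the 12 largest falls, beside Crabp1 and the Orm3 described above, were Pla2g2d, a secreted phospholipase, with 0, 0.284 and 0.422 CPM in the hypoxia libraries, against 1.36, 1.95 and 3.496 CPM in the normoxia libraries, and the protease inhibitor genes Wfdc8 (-3.01) and Wfdc16 (-2.34). Ankrd63 fell 6.56-fold (adjusted p = 3.00e-10), with 1.29, 1.66 and 3.02 CPM in the hypoxia libraries, against 9.82, 11.9 and 16.9 CPM in the normoxia libraries. Akr1b7, an aldo-keto reductase (-2.34), and Gprasp2 (-2.05) were the others, and Gprasp2 overlaps Bhlhb9 on the same strand.

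Most T cell genes and 10 of the B cell genes were lower in hypoxia. Of 21 T cell genes 17 fell, the other 4 were not called and all 21 differences were negative (median -0.72); without normoxia replicate 5, 13 fell and the median was -0.55. Il7r, the interleukin-7 receptor, had 3.52, 4.98 and 6.13 CPM in the hypoxia libraries, against 7.03, 8.47 and 11.2 CPM in the normoxia libraries (1.78-fold lower, adjusted p = 2.14e-04). Lef1, a transcription factor of naive T cells, had 1.93, 3.07 and 3.98 CPM in the hypoxia libraries, against 4.58, 4.93 and 6.48 CPM in the normoxia libraries (1.77-fold lower). Neither overlapped. Of 22 B cell and plasma cell genes 10 fell and 2 rose, Xbp1 (0.39) and Sdc1 (0.47), with hypoxia medians of 265 and 349 CPM. The plasma cell genes Jchain and Mzb1 had medians of 7.57 and 7.58 CPM in hypoxia, against 7.45 and 10.9 CPM in normoxia. The B cell gene Vpreb3 had 8.03, 12.7 and 16.7 CPM in the hypoxia libraries, against 18.5, 24.8 and 32.2 CPM in the normoxia libraries. The complement receptor Cr2 had 1.17, 3.62 and 4.23 CPM in the hypoxia libraries, against 3.77, 7.11 and 8.44 CPM in the normoxia libraries. Without normoxia replicate 2, 6 genes of this list fell.

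NK and cytotoxic genes fell in 16 of 17 cases with a median of -1.46, but 5 fell and the median was -0.39 once normoxia replicate 5 was left out, and 10 fell without hypoxia replicate 1. Klra8, the NK receptor Ly49H, had 0.995, 3.08 and 3.49 CPM in the hypoxia libraries, against 4.45, 5.26 and 30.2 CPM in the normoxia libraries. Its highest normoxia value was that of replicate 5, and the other 5 reached 8.40 CPM. It fell with replicate 5 (-1.85, adjusted p = 9.60e-04) and without it (-1.06, adjusted p = 0.00197). Klre1, another NK receptor, had 0.702, 2.32 and 3.03 CPM in the hypoxia libraries, against 3.65, 4.34 and 21.6 CPM in the normoxia libraries and a log2 fold change of -1.70 with replicate 5 and -0.93 without it. Eomes, a T-box factor of NK and memory T cells, stood at 9.02 CPM in replicate 5 and -2.06 on the log2 scale with it, against -0.95 without it. Klrc2, the NK receptor NKG2C, gave -2.06 and -1.54. These 4 calls held without the library.

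Interferon-stimulated genes turned on the same library. With it 1 of 24 rose and 7 fell (median -0.30), and without it 8 rose and 4 fell (median 0.12). With it 33.3% of these, 23.5% of the MHC and 50% of the dendritic cell genes below were called, beside 41.0% of all tested. Rsad2, the antiviral protein viperin, rose in both fits and had 28.7, 41.3 and 106 CPM in the hypoxia libraries, against 8.64, 12.3 and 25.9 CPM in the normoxia libraries (log2 fold change 1.84 with replicate 5 and 2.12 without it). Ddx58, the RNA sensor RIG-I, had 29.2, 32.5 and 36.5 CPM in the hypoxia libraries, against 35.1, 40.6 and 49.6 CPM in the normoxia libraries. Of 17 genes for MHC class II and antigen presentation 4 fell with replicate 5, and 2 fell and 1 rose without it, as 2 fell without hypoxia replicate 5, with H2-Oa at 3.16, 3.58 and 6.15 CPM in the hypoxia libraries, against 5.17, 6.59 and 7.51 CPM in the normoxia libraries and H2-Ob at 9.42, 24.1 and 34.2 CPM in the hypoxia libraries, against 27.8, 36.5 and 50.9 CPM in the normoxia libraries. Of 18 dendritic cell genes 8 fell and Cd209d rose (0.99), with 2 rising without hypoxia replicate 2. Cd209a, a lectin of monocyte-derived dendritic cells, had 5.87, 7.31 and 10.9 CPM in the hypoxia libraries, against 14.0, 17.6 and 22.6 CPM in the normoxia libraries (2.24-fold lower, adjusted p = 1.47e-06), and Clec9a, of cross-presenting dendritic cells, had 10.5, 13.1 and 16.5 CPM in the hypoxia libraries, against 18.6, 26.3 and 29.9 CPM in the normoxia libraries.

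**Figure D4:**
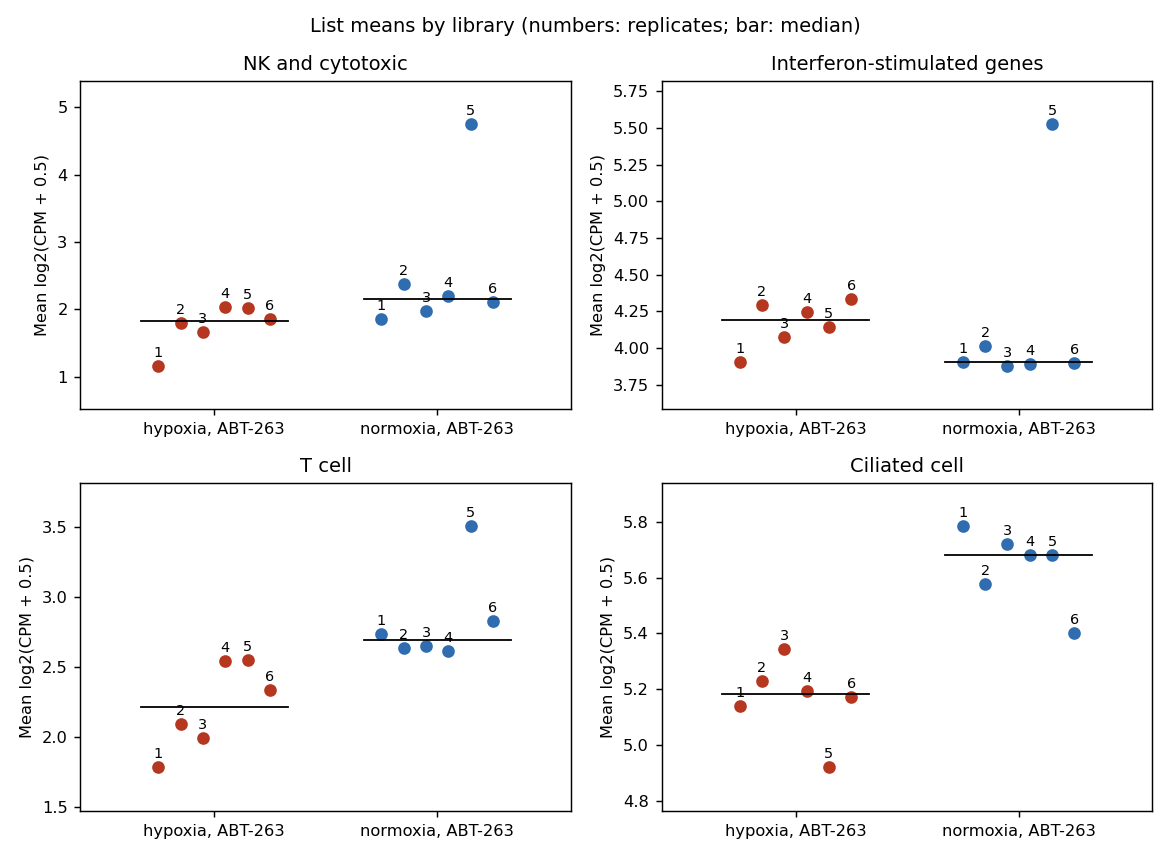
Mean log2(CPM + 0.5) of the tested members of 4 gene lists in each library given ABT-263, hypoxia (red) left and normoxia (blue) right; numbers are replicates and bars medians. Normoxia replicate 5 stands at 4.74 for the NK list against 1.85 to 2.37 in the other normoxia libraries, while ciliated cell genes separate the groups, 4.92 to 5.34 in hypoxia and 5.40 to 5.79 in normoxia.

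Myeloid genes were mixed. Of the monocyte list 61.9%, of the alveolar macrophage list 44.4% and of the neutrophil list 53.3% were called, beside 41.0% of all tested. Of 21 genes of monocytes and interstitial macrophages 9 rose and 4 fell, and 11 rose and 3 fell without normoxia replicate 5. Csf1r, the receptor for macrophage colony-stimulating factor, had 48.9, 54.8 and 61.4 CPM in the hypoxia libraries, against 75.2, 81.8 and 94.9 CPM in the normoxia libraries (1.55-fold lower, adjusted p = 9.04e-07), whereas Mrc1 rose 1.67-fold. Of 18 alveolar macrophage genes 6 rose and 2 fell, with the proton pump subunit Atp6v0d2 at 28.2, 32.4 and 36.7 CPM in the hypoxia libraries, against 14.3, 17.3 and 20.2 CPM in the normoxia libraries and the protease cathepsin K, Ctsk, at 65.9, 74.6 and 85.1 CPM in the hypoxia libraries, against 36.2, 36.8 and 44.2 CPM in the normoxia libraries. Of 15 neutrophil genes 7 rose and Csf3r fell (-0.78), and 10 rose without normoxia replicate 5. Ltf, lactoferrin of neutrophil granules and airway glands, had 122, 192 and 401 CPM in the hypoxia libraries, against 23.5, 34.7 and 56.6 CPM in the normoxia libraries (6.13-fold, adjusted p = 1.26e-05), while S100a8 (0.43) and S100a9 (0.38) were not called.

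Of 19 clock genes 4 rose and 4 fell, so 42.1% were called, beside 41.0% of all genes tested. Called shares were 27.8% for the glucocorticoid, 44% for the immediate early and 16.7% for the heat shock lists that follow. Arntl, the core activator BMAL1, had 5.97, 7.41 and 9.54 CPM in the hypoxia libraries, against 11.8, 13.8 and 20.3 CPM in the normoxia libraries. Bhlhe40, a repressor of the clock and a known HIF target, had 48.7, 58.6 and 108 CPM in the hypoxia libraries, against 30.3, 38.3 and 44.8 CPM in the normoxia libraries. Of 18 glucocorticoid-responsive genes 4 rose and Dusp1 fell (-0.77), a call that held without hypoxia replicate 1 or normoxia replicate 2 or 3 and was lost without any of the other 9 libraries, with the metallothionein Mt2 at 20.97, 34.2 and 60.6 CPM in the hypoxia libraries, against 9.60, 10.6 and 19.5 CPM in the normoxia libraries. Of 25 immediate early and ERK feedback genes 4 rose and 7 fell. The count that fell was 2 without hypoxia replicate 4 or 5 or normoxia replicate 5, 3 without hypoxia replicate 3 or normoxia replicate 4, and 4 without hypoxia replicate 2 or 6 or normoxia replicate 1 or 6. The risers included the feedback inhibitors Spry4 (23.1, 23.96 and 44.2 CPM in the hypoxia libraries, against 11.01, 14.0 and 21.5 CPM in the normoxia libraries) and Spred1 (0.37). Of 18 cold-inducible and heat shock genes 1 rose, Rbm3 (1.31; 2 without hypoxia replicate 1), and 2 fell, Hsph1 (-0.87) and Hsf1 (-0.63). Of 6 tested genes of other tissues near the lung 1 rose, Tnnt3 (1.0). Of the remaining genes with large differences, the neurotensin receptor gene Ntsr2 rose by 4.04 and Speer4c by 4.0, and Pdyn, the precursor of dynorphin opioids, gave 110 against 1 counts, a ratio of 113 (19.9 to 4511). The nuclear long non-coding RNA Neat1 averaged 2403 ± 1366 CPM in hypoxia and 4358 ± 1271 CPM in normoxia, a call (adjusted p = 0.045) lost under 11 of 18 alternatives. The mitochondrially encoded mt-Nd4 averaged 3343 ± 1113 CPM in hypoxia and 4690 ± 796 CPM in normoxia, a call (adjusted p = 0.0265) lost under 4.

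The 12 vehicle libraries, which share no sample with those given ABT-263, were used to ask whether the difference depended on the drug. Hypoxia against normoxia changed 6053 genes under vehicle (35.7%). Of the genes called under ABT-263, 4725 were called under vehicle too, which is 68.0% of the ABT-263 calls and 78.1% of the vehicle calls, and all 4725 had the same direction. A further 2223 genes were called under ABT-263 alone, of which 2122 had the same sign under vehicle, and 1328 under vehicle alone. Across the 16935 genes, which are not independent replicates, the log2 fold changes correlated at Pearson's r = 0.846 and Spearman's rho = 0.840.

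The difference between the 2 hypoxia responses was tested gene by gene as an interaction. It called 0 of 16935 genes (0.00%) with edgeR, where the smallest adjusted p was 0.991 and 625 genes (3.69%) had an unadjusted p under 0.05. DESeq2 and limma-voom also called 0, with 654 and 625 genes at that unadjusted level. The smallest interaction p-values belonged to Shisa2, Mmp3 and Htr2a, none of which passed the adjustment. Shisa2, an endoplasmic reticulum protein, had a log2 fold change of 0.83 under ABT-263 and -0.34 under vehicle. Mmp3 had 1.43 and 0.62, and the serotonin receptor gene Htr2a 1.76 and 0.61. Among the genes described above, Ntrk2 had a log2 fold change of 3.69 under ABT-263 and 3.68 under vehicle, Timp1 3.21 and 3.08, Fst 3.71 and 3.82, Bnip3 1.42 and 1.70, and Igfbp3 -2.20 and -2.55. The 2 values lay further apart for Retnla (4.65 and 5.74, unadjusted p = 0.0162), Cyp1a1 (-3.20 and -4.90, unadjusted p = 0.0105) and Chil4 (4.22 and 6.04, unadjusted p = 0.402), with an adjusted p of at least 0.991 in edgeR for each. The median of the NK list was -1.46 under ABT-263 (-0.39 without normoxia replicate 5) and -0.33 under vehicle. Fatty acid synthesis had medians of 0.21 under ABT-263 and -0.17 under vehicle, and adipocyte genes -0.17 and -0.97. Platelet genes had medians of -0.30 under ABT-263 (-0.16 without normoxia replicate 5) and 0.10 under vehicle. Extracellular matrix genes had 0.83 and 0.60. The unadjusted interaction p in edgeR was under 0.05 for 3 of 17 NK, 6 of 19 fatty acid synthesis and 4 of 12 adipocyte genes. It was so for 5 of 21 platelet and 8 of 42 extracellular matrix genes, beside 3.69% of all genes. The T cell and glycolysis lists held 0. As 0 of 16935 genes passed the adjustment, no list could hold a member that did.

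**Figure D5:**
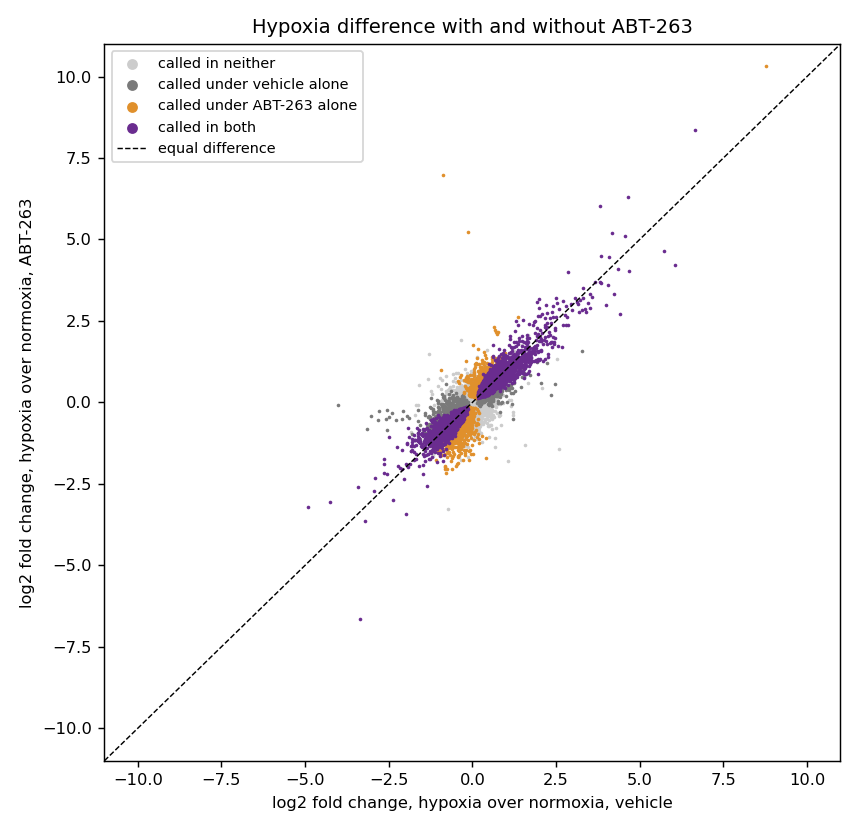
Log2 fold change of hypoxia over normoxia for 16935 genes under ABT-263 (y axis) and under vehicle (x axis); the dashed line marks equal differences. Purple genes were called in both (4725), orange under ABT-263 alone (2223), dark grey under vehicle alone (1328) and light grey in neither; the points called in both lie along the line, with no gene in opposite directions.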

How the data were processed

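Whole-lung RNA was sequenced in 24 mouse libraries, 6 in each of 4 groups. Expected counts for 54532 Ensembl genes were deposited by the authors; reads were handled with Trimmomatic, STAR and RSEM on GRCm38, per the submitters' processing notes. No source used here gives the annotation release, the tool versions or the strand setting. RSEM divides reads among near-identical copies by estimation, so values of Hba-a1 and Hba-a2, Hbb-bs and Hbb-bt, Orm1 to Orm3, and Chil3 and Chil4 are uncertain. Of the named genes, 25 overlap another gene on the same strand and 43 on the opposite strand.

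Here the deposited expected counts were rounded to whole numbers (91.8% of values were whole within 0.001), filtered with filterByExpr (minimum count 10), scaled by TMM and fitted with edgeR 4.0.16 (robust quasi-likelihood, 4 group means, 24 libraries, 20 residual degrees of freedom) in R 4.3.3, with Benjamini-Hochberg adjustment over all 16935 genes. DESeq2 1.42.0, limma 3.58.1 (voom), DESeq2 size factors, no low-count filter, a fit to the 12 libraries compared and leaving out each library were the alternatives. Library measures were compared by exact permutation tests. The scripts were tested on simulated data. Intervals and floors cover counting error only. The labels number no animals, and p-values therefore reflect the variation among these libraries, whose origin may be technical.

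Named genes were the 12 largest rises and 12 largest falls among called genes with a mean of at least 1 CPM in either group, the 5 largest rises and falls in CPM, the 2 called members of smallest p of each of 53 gene lists with at least 4 called members, and 12 fixed genes. Gene models, pseudogenes and antigen receptor segments were left out. Some genes that the rule chose are not reported here. Other genes were named after their values were seen. The members and lists were chosen with earlier results of these data known. Promoter windows came from RefSeq (GRCm38.p6), and motifs were searched on both strands. Coordinates are 1-based.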

Additional observations from a re-analysis of the deposited data

Results flagged for a closer look

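In 260 sets of 6 values, 27 held a highest or lowest library far from the other 5 of its group by Dixon's test, where chance flags about 1 in 20 sets. Hypoxia replicate 1 gave 7 of them, hypoxia replicate 4 gave 5, normoxia replicate 4 gave 4 and normoxia replicate 5 gave 7. All values are CPM, followed by the range of the other 5 libraries.

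In hypoxia replicate 1, Epas1 stood at 1390 (962 to 1108), Fstl3 at 49.1 (27.5 to 33.7), Bhlhe40 at 107.9 (48.7 to 64.2), Spry4 at 44.2 (23.1 to 24.7), Bcl2l1 at 156.9 (95.8 to 117) and Cdkn1a at 104.2 (41.5 to 62.7). Cox7a2 was low there at 188.2 (269 to 301). In hypoxia replicate 4, Orm1 stood at 41.5 (12.5 to 22.3), Cyp1a1 at 7.84 (0.640 to 2.34), Wfdc16 at 0.923 (0.0815 to 0.282), Rsad2 at 106.4 (28.7 to 52.8) and H2-Oa at 6.15 (3.16 to 3.94). In hypoxia replicate 6, Dmbt1 stood at 7.46 (0.897 to 2.23) and Gprasp2 was low at 0.704 (0.979 to 1.14).

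In normoxia replicate 5, the NK cell genes Klra8, Klre1, Klrc2 and Eomes stood at 30.2 (4.45 to 8.40), 21.6 (3.65 to 4.88), 6.30 (1.27 to 2.25) and 9.02 (0.591 to 1.58). Rsad2 stood at 25.9 (8.64 to 12.9), Retnla at 367.5 (106.1 to 188) and Ccl2 at 2.10 (0.659 to 1.19) in the same library. In normoxia replicate 4, Pla2g2d stood at 3.5 (1.36 to 2.11), Ednrb at 59.8 (37.9 to 44.2), Ctsk at 44.2 (36.3 to 37.8) and Mt2 at 19.5 (9.60 to 11.1). Aldh3a1 was low in normoxia replicate 6 at 32.0 (47.2 to 54.0), and Pdyn, at 0 in the other 5 normoxia libraries, stood at 0.0664 in replicate 1.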

How the results depend on the processing

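The count of genes called (6948) was 5954 to 7340 when each library was left out in turn and 5940 to 7198 under the other settings, with no filter on low counts giving the fewest and DESeq2 the most. The 2-fold count (969) was 832 to 1159 and 821 to 1236, and the interaction called 0 genes under every alternative run. Of 124 called genes that the naming rule chose, 120 kept call and sign in all 18 alternatives; Chil4, Scgb1a1, Neat1 and mt-Nd4 lost the call in 23 values, with adjusted p of 0.0551 to 0.15. The log2 fold change of Cdkn1a, not called, was -0.31 to 0.11 without 1 library, positive without hypoxia replicate 3 or 5 or normoxia replicate 4 or 5 and lowest without hypoxia replicate 1. The difference in total expected counts, hypoxia minus normoxia, was -321270 to 609080 without 1 library. The NK count that fell (16) was 7 with DESeq2, 6 with limma-voom, 7 in the fit to the 12 libraries, 9 with no filter, 10 without hypoxia replicate 1 and 5 without normoxia replicate 5; the cause was not tested. With normoxia replicate 5 and hypoxia replicate 1 both left out, an alternative chosen after seeing the data, 6333 genes were called, and 9 T cell and 4 dendritic cell genes fell. Other lists moved too. In that fit fatty acid synthesis had 4 risen and 5 fallen, interferon-stimulated genes 8 and 2, and MHC class II genes 4 and 2. HIF subunits and oxygen sensors had 3 risen and 2 fallen, as had fibroblast and mesothelial genes. DESeq2 size factors moved the median of all genes to -0.03. No paired analysis was possible because the labels give the libraries no replicate numbers that groups share. At 12643484 to 17295233 counts a library, a gene near 1 CPM rests on few counts.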
